A study of Drosophila melanogaster with 72 samples.

Results

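The genes described here are 7 enzymes of methionine, sarcosine and cystathionine metabolism in the fruit fly, out of 15240 genes measured. They are Sam-S, CG6188, CG6385, Ahcy13, CG10621, Cbs and Eip55E. They were selected on measured values, the variation of Cbs and CG6385 FPKM with the time of day in heart. The daily pattern of all 7 genes in heart is therefore given as a description, and no test of it is used. Each gene was found by its symbol or CG name, and the transcript with the highest mean over all libraries stands for it. All 7 passed the minimum mean of 1 FPKM (fragments per kilobase of transcript, scaled to the depth of the library) in every fit.

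The methionine cycle makes S-adenosylmethionine, the methyl donor of most cellular methylation, and recovers homocysteine after the methyl group is used. Glycine takes up surplus methyl groups to become sarcosine, which is oxidised back to glycine, and homocysteine can leave the cycle through cystathionine to cysteine. In the fly, the glycine methyltransferase step is known mainly from the fat body, where it limits the level of S-adenosylmethionine.

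All flies were Oregon R males kept at 25 °C on cornmeal molasses agar, fed ad libitum (ALF) or under time-restricted feeding (TRF), in which the food was alternated with agar and water only. Snap-frozen heads, peripheries (the body without the head) and hearts gave polyA+ RNA for unstranded libraries. Heads and peripheries were sampled at 3, 5 and 7 weeks of age and hearts at 5 weeks, at zeitgeber times (ZT, hours after lights on) 00, 06, 12 and 18. Week 5 heads and peripheries were sampled every 3 h. The labels give no genotype change, no batch, no number of animals per library and no separate cultures, and each tissue, week, feeding type and ZT had 1 library, so p-values measure the spread between these libraries only.

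Of 72 libraries, 60 were used. The other 12 were left out because ninaE, the rhodopsin of the outer photoreceptors, contradicted the tissue label: it was 0.081 to 0.923 FPKM in 6 libraries labelled head and 14968 to 22940 in 6 labelled periphery. The libraries used were 26 of head, 26 of periphery and 8 of heart, with 0.210 to 18.6, 6.48 to 21.7 and 7.78 to 23.7 M reads. In the shallowest, head at week 3 under TRF at ZT12, Eip55E rested on 9 reads. Summed Hand and tin, which mark heart cells, were 724 to 1784 FPKM in the 8 heart libraries and at most 15.6 in the week 5 peripheries, and the 7 fat body markers summed to 633 to 1200 FPKM in heart, so the heart libraries also held RNA of such genes. In bulk tissue, fewer cells of a type and less RNA per cell cannot be told apart.

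The clock gene tim, which falls during the day and rises at night, was checked against the ZT labels. In heart it was lowest at ZT06 (15.9 FPKM in ALF and 18.6 in TRF) and highest at ZT18 (155 and 162). In periphery at week 5 it was lowest at ZT06 in ALF (11.9 FPKM) but at ZT09 in TRF (8.24), and at ZT03 it was 43.5 in ALF and 131 in TRF. In periphery at week 3 it was 18.4 FPKM in ALF and 63.8 in TRF at ZT12, then 92.5 and 21.7 at ZT18. At week 7 it was 19.8 and 52.0 at ZT12, then 93.5 and 21.8 at ZT18. In head it was 151 FPKM in ALF and 33.3 in TRF at week 3 ZT18, 62.8 and 10.2 at week 5 ZT15, and 86.6 and 224 at week 7 ZT06. The TRF comparisons of head and periphery pair libraries by these ZT labels. The rhythm tests, the tissue and age comparisons and the orders by time of day also rest on them. The part of this mismatch in any of these was not tested.

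One head library stands apart. In head at week 5 under ALF at ZT15, a short Sam-S transcript of 955 bases, which covers the 5′ part of the gene, was at 4.99 FPKM against 112 for the transcript used here, a ratio of 0.0447. In the other 25 heads this ratio was 0.596 to 1.15, in peripheries 0.563 to 0.773 and in hearts 0.467 to 0.538. Its ninaE was 9856 FPKM, the lowest among the heads used. Leaving out ZT15 changed no count of members called in head against periphery or heart against head.

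Positions are on build dm3, as the deposited annotation gives them. Sam-S lies on chromosome 2L from 107761 to 114210 (plus strand, 12 transcripts), and CG10621 on 2L from 18952206 to 18954425 (minus strand). CG6188 lies on 3R from 8500330 to 8501806 (plus strand), and its 3′ end overlaps CG43630 on the minus strand; without strand, reads from the overlap cannot be told apart. CG6385 lies on 2R from 13641052 to 13643923 (minus strand) and Eip55E on 2R from 14515399 to 14516784 (plus strand). Ahcy13 and Cbs lie on X, from 15344294 to 15346679 and from 20916165 to 20920127 (both plus strand, 2 transcripts each). RefSeq Release 6 names CG6188 Gnmt, CG6385 Sardh, Eip55E Cth and Ahcy13 Ahcy. CG10621 sits next to CG10623 (Bhmt in RefSeq), a gene of the same enzyme family; shared reads between them were not assessed.

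In heart at week 5, 6 of the 7 genes were higher in all 4 libraries of ZT00 and ZT06 than in all 4 of ZT12 and ZT18, in both feeding types. CG6385 had the widest swing, 5.07-fold between the means, followed by Ahcy13 (2.82-fold) and Cbs (2.17-fold), and CG10621 had none (0.990-fold). Among all 9726 genes measured in heart, 4.72% had this order of libraries. Since the genes were listed for this contrast, nothing is read from the count beside it. The limma test for a 24 h rhythm in heart called 0% of the 9726 genes, with 1009 below 0.05 before adjustment. The 7 genes were among the 9726, but nothing is read from this test for them, because heart values chose them.

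**Figure D1:**
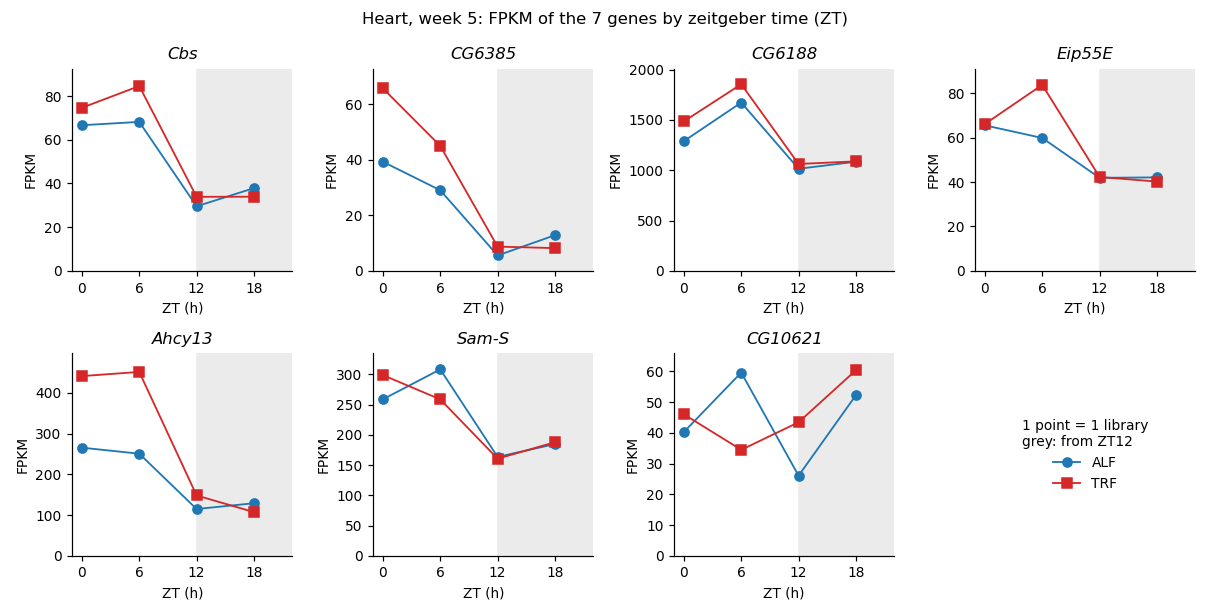
FPKM of each gene in the 8 heart libraries against zeitgeber time in hours, with ALF as circles and TRF as squares; 1 point is 1 library and the grey area starts at ZT12. All genes except CG10621 are higher at ZT00 and ZT06 than at ZT12 and ZT18 in both feeding types.

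CG6385 encodes sarcosine dehydrogenase, which oxidises sarcosine to glycine. In ALF hearts it was at 39.3 FPKM at ZT00, 29.0 at ZT06, 5.54 at ZT12 and 12.8 at ZT18. In TRF hearts it was at 65.7, 45.0, 8.73 and 8.19 at the same times. The lowest value of ZT00 and ZT06 (29.0) stood well above the highest of ZT12 and ZT18 (12.8), and both early values were higher in TRF than in ALF.

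CG6188 encodes glycine N-methyltransferase, which makes the sarcosine that CG6385 removes. It was the most abundant of the 7 per length, at 1289, 1672, 1014 and 1084 FPKM in ALF hearts at ZT00, ZT06, ZT12 and ZT18, and at 1486, 1854, 1062 and 1088 in TRF hearts. It was highest at ZT06 in both feeding types, and its swing was the narrowest of the 6 genes with one (1.48-fold). Both enzymes of the sarcosine cycle were thus higher at ZT00 and ZT06 than at ZT12 and ZT18, but CG6385 was highest at ZT00 and CG6188 at ZT06.

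Sam-S encodes S-adenosylmethionine synthetase, which opens the cycle. Its heart levels were 259, 308, 163 and 185 FPKM in ALF and 299, 259, 161 and 188 in TRF, a 1.61-fold swing. The short transcript gave the same order, 122 to 162 FPKM at ZT00 and ZT06 against 76.3 to 97.5 at ZT12 and ZT18. The ratio of the short to the chosen transcript, which marks coverage of the 5′ part, overlapped between both times of day (0.471 to 0.537 and 0.467 to 0.538).

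Ahcy13 encodes S-adenosylhomocysteine hydrolase, which releases homocysteine after methylation. It was at 265, 251, 115 and 129 FPKM in ALF hearts and at 441, 451, 148 and 107 in TRF hearts. The 2 early TRF libraries were the highest of the 8, and at ZT18 the TRF library was the lowest. CG10621, of the homocysteine methyltransferase family, was at 40.3, 59.6, 26.0 and 52.2 FPKM in ALF and at 46.0, 34.5, 43.4 and 60.4 in TRF. Its highest and lowest values fell at different times in the 2 feeding types, and its time points overlapped.

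Cbs encodes cystathionine β-synthase, which joins homocysteine to serine. It was at 66.7, 68.2, 29.5 and 37.9 FPKM in ALF hearts and at 74.6, 84.6, 33.9 and 33.9 in TRF hearts. Eip55E encodes cystathionine γ-lyase, the next step toward cysteine, and was at 65.6, 59.9, 41.9 and 42.1 FPKM in ALF and at 66.2, 83.8, 42.3 and 40.2 in TRF. Both genes had 2 levels, a higher one at ZT00 and ZT06 and a lower one at ZT12 and ZT18.

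Fitted 24 h curves described the same 6 genes with amplitudes (the peak above the daily mean) between 0.41 (CG6188) and 1.60 (CG6385) on the log2(FPKM + 1) scale and peaks between ZT2.2 (CG6385) and ZT3.9 (CG6188). With 4 time points 6 h apart, a peak between ZT00 and ZT06 is an interpolation. Marker sums in heart overlapped between ZT00 with ZT06 and ZT12 with ZT18 for each of 9 lists. The 7 fat body markers summed to 633 to 1086 FPKM at ZT00 and ZT06 and to 703 to 1200 at ZT12 and ZT18. Within that list Lsp2, a storage protein, did not overlap and ran against the 6 genes. It was at 0.859 to 13.0 FPKM at ZT00 and ZT06 and at 16.8 to 34.9 at ZT12 and ZT18. The share of all heart genes with that order is not given here, so nothing is read from the order of Lsp2. The other fat body markers overlapped. In the same order of times, Mtp was at 53.2 to 91.3 and 42.8 to 56.0 FPKM, and NLaz at 106 to 176 and 75.5 to 124. Rfabg was at 115 to 356 and 273 to 400 FPKM. The part of Lsp2-expressing cells in the heart pattern was not tested. Fbp1 was at 0.015 to 0.450 FPKM over the 8 hearts. The 3 hemocyte markers found summed to 84.5 to 137 and 58.9 to 121 FPKM, and the nephrocyte markers to 309 to 655 and 290 to 559.

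Other genes of the surrounding pathways were counted in the same way from 3 lists of 34 genes. Of 12 genes of glycine, serine and folate one-carbon metabolism, 4 had all ZT00 and ZT06 hearts above all ZT12 and ZT18 hearts. They were pug (3.24-fold), a folate enzyme that interconverts one-carbon units; CG11899 (2.0-fold) and CG6287 (1.56-fold), of serine synthesis; and CG6415 (1.56-fold), of glycine cleavage. Of 14 genes of the methionine cycle, salvage and polyamines, 2 did so, CG32068 (1.35-fold), of methionine salvage, and CG7560 (1.32-fold), which encodes methylenetetrahydrofolate reductase. Of 8 genes of cysteine, glutathione and sulfide metabolism, 0 did so. Thus 6 of the 34 had the order seen in Cbs and the others overlapped, where 4.72% of all 9726 heart genes had that order. The lists were chosen with earlier results of these data known, so nothing is read from this count either.

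**Figure D2:**
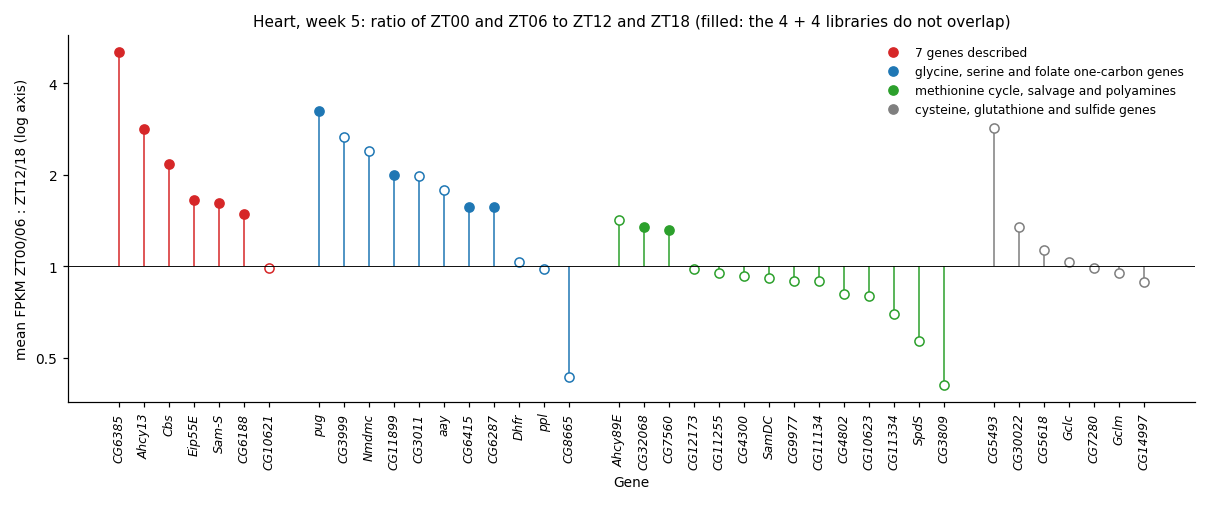
Ratio of mean FPKM at ZT00 and ZT06 to mean FPKM at ZT12 and ZT18 in heart, on a log axis, for the 7 genes and 3 lists of pathway genes; filled points mark genes whose 4 early libraries all lie above the 4 late ones. Ts and GS, under 1 FPKM, are not drawn; CG6385 has the highest ratio, 5.07, and pug the highest among the listed pathway genes, 3.24.

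Levels were then followed at week 5 in periphery, where every 3 h was sampled and which the choice of genes did not use. At the time points shared with heart, 0 of 7 genes had all ZT00 and ZT06 peripheries above all ZT12 and ZT18 peripheries, against 1.47% of 11992 genes. Cbs averaged 64.0 FPKM at ZT00 and ZT06 and 60.3 at ZT12 and ZT18, and CG6385 averaged 22.4 and 31.0. The difference in daily pattern between heart and periphery was not tested, because the heart values chose the genes. The peripheries were also grouped by ZT labels that tim did not follow alike in ALF and TRF.

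CG6385 in ALF peripheries ran from 10.7 FPKM at ZT00 to 34.2 at ZT21, with a median of 24.9 over both feeding types (n = 16). In TRF peripheries it ran from 8.20 at ZT09 to 44.1 at ZT18. The lowest value thus fell at a different time in each feeding type. Ahcy13 followed it: its lowest values were 66.4 FPKM at ZT00 in ALF and 85.7 at ZT09 in TRF, and its highest were 171 and 195, both at ZT21.

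Eip55E had the lowest p of the 7 genes for a daily course in periphery. It was at 66.4 to 132 FPKM in ALF and 75.3 to 97.9 in TRF, with the lowest library at ZT00 in both. Its fitted 24 h curve had an amplitude of 0.20 ± 0.06 (SE, log2 scale) and a peak at ZT12.9, with an unadjusted p of 0.0103 and an adjusted p of 0.109 in limma. Cbs ranged only from 46.7 to 85.0 FPKM and had an amplitude of 0.14 ± 0.07. CG6188 ranged from 390 FPKM at ZT00 to 1225 at ZT06, both in ALF.

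The limma test of a 24 h rhythm over both feeding types in periphery at week 5 called 0 of 7 genes, against 0.242% of 11992 genes. It pooled ALF and TRF by ZT label, although tim was lowest at ZT06 in ALF and at ZT09 in TRF. Before adjustment, 3 of the 7 were below 0.05 (Eip55E, Sam-S and CG10621), as were 3178 of all genes, and limma-voom on reads called 0 of 7 and 28 genes in all. Of the 34 pathway genes, only Gclc passed, the catalytic subunit of the first enzyme of glutathione synthesis, with an amplitude of 0.38 ± 0.06, a peak at ZT21.4 and an adjusted p of 0.0475. The test that the rhythm differed between ALF and TRF called 0 of 7, 0% of 11992 genes, with 590 genes and 0 of the 7 below 0.05 before adjustment and 0 genes by limma-voom.

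**Figure D3:**
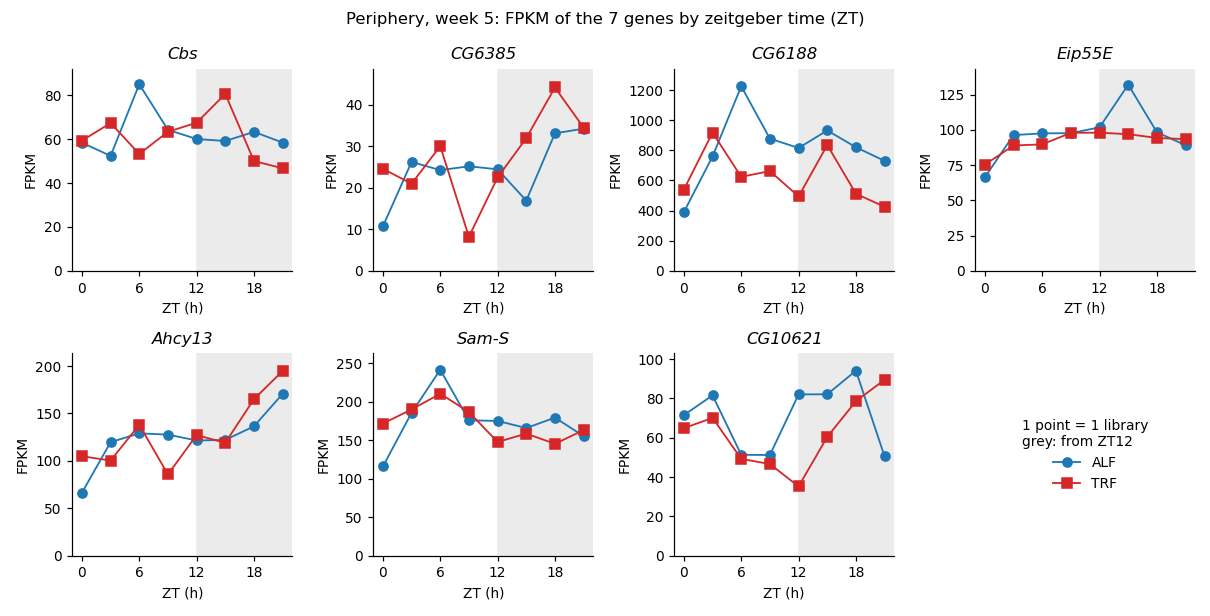
FPKM of each gene in the 16 periphery libraries of week 5 against zeitgeber time in hours, with ALF as circles and TRF as squares; 1 point is 1 library and the grey area starts at ZT12. No gene has the 2 levels seen in heart, and CG6385 and Ahcy13 have their lowest values at ZT00 in ALF and at ZT09 in TRF.

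In head at week 5, CG6385 had a fitted amplitude of 0.62 ± 0.20 with a peak at ZT1.9, an unadjusted p of 0.0168 and an adjusted p of 0.689. Its 13 values ran from 16.2 to 72.4 FPKM with a median of 38.7, highest at ZT00 in ALF and at ZT03 in TRF (62.4). The head test called 0 of 7 genes and 0% of 9886 genes; 1 of the 7 and 668 genes were below 0.05 before adjustment, and limma-voom called 0 genes. The test that the rhythm differed between feeding types also called 0 of 7 and 0% of 9886 genes, with 247 genes and 0 of the 7 below 0.05 before adjustment and 0 genes by limma-voom. CG10621 in head had an amplitude of 0.69 ± 0.28, a peak at ZT22.8 and an adjusted p of 0.764.

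Correlations between the genes are given as a description, over libraries that share their processing and, within heart, the order of times that chose the genes. Over the 8 hearts, Pearson r of log2(FPKM + 1) with Cbs was 0.971 for CG6385, 0.967 for Eip55E, 0.958 for Ahcy13, 0.935 for Sam-S, 0.935 for CG6188 and 0.08 for CG10621. Over the 16 peripheries of week 5, r of Cbs with CG6385 was −0.19, and over the 13 heads it was 0.06. CG6385 and Ahcy13 were the pair with the highest r in periphery (0.842), and it was 0.954 in heart and 0.630 in head.

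The genes most like CG6385 over the 16 peripheries, by Pearson r among the 9562 genes that averaged 5 FPKM or more, were pug (0.916), CG3590 (Adsl in RefSeq, 0.883), CG31777 (0.876), v (0.866), the tryptophan oxygenase of eye pigment synthesis, and CG14933 (0.865). Ahcy13 was the 9th of them. In periphery pug was lowest at ZT00 in ALF (201 FPKM) and at ZT09 in TRF (124), and highest at ZT21 in both (556 and 708). Those are the same libraries that held the lowest CG6385. Over the 8 hearts, among 6587 genes, those most like CG6385 were RpL24-like (0.986), pug (0.983), ns2 (0.978), eRF1 (0.975) and CG9547 (0.974).

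For Cbs, the most alike genes in heart were ns2 (0.989), aru (0.976), Hlc (0.976), eIF-3p66 (0.975) and RpL7-like (0.975), and CG6385 was the 9th. In periphery they were tsu (0.870), CG14823 (0.844), mtTFB1 and Ccdc56 with identical values (0.831) and MtnC (0.831). The 2 lists for Cbs share no gene, whereas pug stands in both lists for CG6385. The heart lists rank genes over the libraries that chose Cbs and CG6385, so nothing is read from this.

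TRF was compared with ALF at the same ZT within each tissue and week, the question of feeding in the series. No difference in the 7 genes passed the test in any of the 7 comparisons. CG6188 in periphery at week 5 ran from 390 to 1225 FPKM in ALF (median 818) and from 425 to 918 in TRF (median 582), lower under TRF in 6 of 8 pairs. The difference was −0.37 ± 0.15 (SE, log2), with a 95% interval of −0.69 to −0.05, an unadjusted p of 0.0265 and an adjusted p of 0.873 in limma. CG10621 was lower under TRF in 7 of 8 pairs there, by −0.20 ± 0.17 (adjusted p 0.887). Both ranges overlapped between the feeding types.

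In heart, Ahcy13 averaged 287 ± 185 FPKM under TRF and 190 ± 79.0 under ALF (SD, n = 4 each), a difference of 0.42 ± 0.21 that was positive in 3 of 4 pairs, with an adjusted p of 0.708. CG6188 was higher under TRF in 4 of 4 pairs but by only 0.11 ± 0.09 (adjusted p 0.743). CG6385 differed by 0.33 ± 0.25, up in 3 of 4 pairs. The 95% intervals of these 3 were −0.11 to 0.95, −0.12 to 0.33 and −0.29 to 0.96, all of which include 0.

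At week 7, CG10621 was higher under TRF in both pairs of head and of periphery. In head it was at 27.0, 89.8 and 22.6 FPKM in ALF at ZT00, ZT06 and ZT18, and at 225 and 111 in TRF at ZT00 and ZT06. In periphery it was at 76.8, 63.5 and 43.5 FPKM in ALF at ZT06, ZT12 and ZT18, and at 101 and 103 in TRF at ZT12 and ZT18. The groups, of 3 ALF and 2 TRF libraries in each tissue, did not overlap. The share of all genes with such a separation was not counted, so nothing is read from it. The ALF groups also include ZT18 in head and ZT06 in periphery, where no TRF library was used. The differences were 1.65 ± 0.75 in head (unadjusted p 0.0464, adjusted p 1) and 0.94 ± 0.34 in periphery (0.0155 and 0.254), each from 2 pairs. The 7 fat body markers summed to 424 to 900 FPKM in ALF and 1922 to 3471 in TRF heads at week 7. Over these 5 heads Lsp2 alone ran from 14.0 to 2725 FPKM. The next highest were Rfabg (139 to 381) and CG3523 (143 to 377). In week 7 peripheries the 7 markers summed to 665 to 677 in ALF and 595 to 638 in TRF. The part of these markers in the CG10621 differences was not tested. CG6385 in periphery at week 7 was at 8.25 and 3.76 FPKM in ALF and at 25.9 and 6.53 in TRF at ZT12 and ZT18, a difference of 1.10 ± 0.55 (adjusted p 0.348).

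The counts of called genes stand beside these values. In head, limma called 0 of 7 at week 3 (0% of 9879 genes, 750 below 0.05 before adjustment), 0 of 7 at week 5 (0%, 140 genes) and 0 of 7 at week 7 (0%, 310 genes), and limma-voom called 0 genes in each. In periphery it called 0 of 7 at week 3 (0% of 12001 genes, 744 genes before adjustment) and 0 of 7 at week 5 (0%, 629 genes), with 0 genes by limma-voom. At week 7 it called 0 of 7 against 0.167% of 12001 genes, and limma-voom called 0 of 7 and 23 genes. In heart it called 0 of 7 and 0% of 9726 genes (635 before adjustment), with 0 by limma-voom. Below 0.05 before adjustment were only CG10621 at week 7 in head and in periphery and CG6188 in periphery at week 5. Of the 34 pathway genes 0 were called in any of the 7 comparisons.

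**Figure D4:**
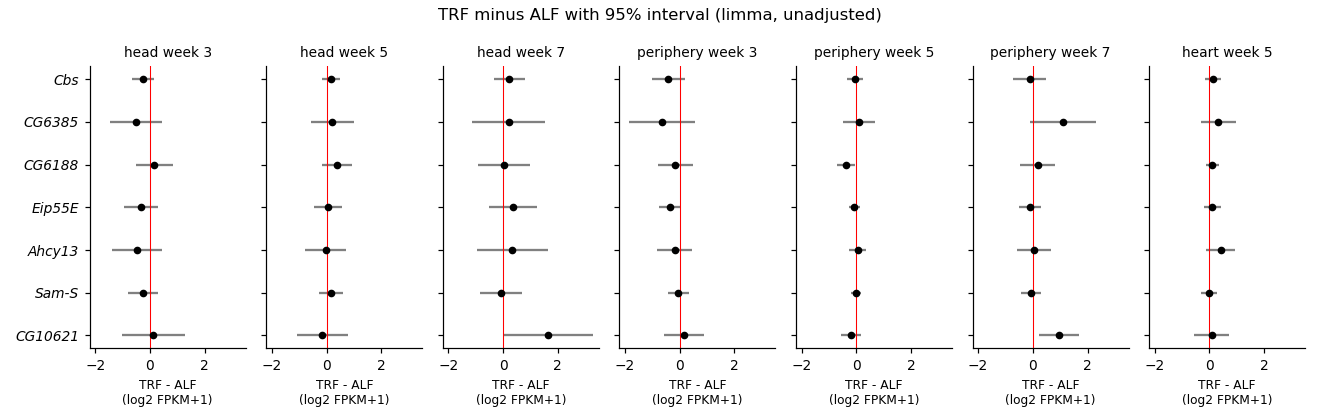
Difference of TRF from ALF in log2(FPKM + 1) for each gene, tissue and week, with its unadjusted 95% interval from limma; each panel is 1 comparison and the red line is 0. The intervals of CG10621 at week 7 lie above 0 in head and periphery and that of CG6188 in periphery at week 5 lies below 0; none passed after adjustment.

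Age was compared as week 7 against week 3, where week and any batch cannot be told apart. No member passed in either tissue. CG6385 in periphery was at 6.65, 17.6, 23.9, 24.1 and 39.1 FPKM at week 3 and at 3.76, 6.53, 8.25, 15.7 and 25.9 at week 7. The 2 sets overlapped, and the difference was −0.92 ± 0.46 with an adjusted p of 0.216. Cbs in periphery had a median of 75.9 FPKM at week 3 and 63.8 at week 7, a difference of −0.27 ± 0.16 (adjusted p 0.292).

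In periphery, limma called 0 of 7 genes against 9.62% of 12002 genes with age, and before adjustment 0 of the 7 and 3288 genes were below 0.05; limma-voom called 0 of 7 and 1127 genes. In head it called 0 of 7 and 0% of 9842 genes (372 below 0.05 before adjustment, 0 by limma-voom). There Ahcy13 had a median of 135 FPKM at week 3 and 97.2 at week 7, a difference of −0.51 ± 0.34 (adjusted p 1.0). Of the 34 pathway genes, only CG7560 passed, falling in periphery by 0.45 ± 0.12 (adjusted p 0.0290).

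At week 5 the tissues were compared at the same feeding type and ZT. In this fit FPKM differed between tissues for most genes, 79.3% of 12287 for head against periphery, 80.8% for heart against periphery and 77.7% for heart against head. The members called were 2 of 7, 4 of 7 and 4 of 7, all below those shares. The median difference over all genes was −0.08, −0.61 and −0.21. Differences are therefore also given after rescaling by the median of ratios. That scaling uses only genes above 0 in every library, so its shift does not equal these medians and is not a correction by them. The shift was larger than the median for heart against head and smaller for heart against periphery. For head against periphery the shift was downward, as the median was. A difference below 0, as for Eip55E, thus moved further from 0, and one above 0, as for Sam-S, moved toward it. Fat body markers summed to 633 to 1200 FPKM in heart, 369 to 1473 in head and 514 to 884 in periphery, and overlapped. Nephrocyte markers summed to 290 to 655 FPKM in heart and at most 19.7 elsewhere at week 5, and gut markers to at least 2260 in periphery and at most 18.1 in heart and head; their part in the differences was not tested.

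Eip55E was the gene with the clearest tissue difference. It ran from 66.4 to 132 FPKM in periphery (median 96.6, n = 16) and from 35.2 to 66.3 in head (median 41.2, n = 13). These ranges did not overlap, but the share of all genes with such a separation was not counted. Head was lower than periphery in 13 of 13 pairs, by 1.0 ± 0.12 (adjusted p 4.65e-08), and by 1.10 after rescaling. Heart ran from 40.2 to 83.8 FPKM (median 51.1, n = 8). It was lower than periphery in 8 of 8 pairs, a difference of −0.79 ± 0.14 (adjusted p 2.77e-05) and of −0.32 after rescaling (adjusted p 0.0477). Heart and head differed by 0.21 ± 0.15 (adjusted p 0.225), but by 0.79 after rescaling (adjusted p 7.13e-05).

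CG6188 was highest in heart. It ran from 1014 to 1854 FPKM there (median 1189), from 443 to 1354 in head (median 867) and from 390 to 1225 in periphery (median 745). Heart exceeded periphery in 8 of 8 pairs, by 0.91 ± 0.19 (adjusted p 1.88e-04), and by 1.39 after rescaling (adjusted p 7.85e-07). Heart exceeded head in 4 of 6 pairs, by 0.67 ± 0.21 (adjusted p 0.00581), and by 1.26 after rescaling (adjusted p 9.57e-06). Without ZT00 the heart-head difference was 0.48 with an adjusted p of 0.0709. CG43630, which overlaps its 3′ end, was at 279 to 590 FPKM in heart, 76.0 to 185 in periphery and 21.2 to 173 in head at week 5, or 21.2 to 78.1 in head without the ALF ZT15 library that stands apart; its part in the tissue difference was not tested.

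Cbs and CG10621 were lower in heart in FPKM as deposited. Cbs had medians of 52.3 FPKM in heart, 65.6 in head and 59.7 in periphery with overlapping ranges. The heart difference was −0.37 ± 0.16 from periphery and −0.51 ± 0.17 from head (adjusted p 0.0394 and 0.00946), and after rescaling it turned to 0.11 and 0.07 (adjusted p 0.539 and 0.713). Without ZT12 it was −0.14 from periphery and −0.24 from head (adjusted p 0.444 and 0.223). The heart values of Cbs at ZT00 and ZT06 were 66.7 to 84.6 FPKM, against 53.3 to 85.0 in periphery at these times.

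CG10621 had medians of 44.7 FPKM in heart, 93.5 in head and 67.5 in periphery. Heart was lower than head in 6 of 6 pairs, by −0.78 ± 0.24 (adjusted p 0.00579), and lower than periphery in 6 of 8, by −0.61 ± 0.23 (adjusted p 0.0174). After rescaling the differences were −0.20 and −0.14 (adjusted p 0.451 and 0.585). Its 13 heads ran from 26.7 to 149 FPKM, a 5.58-fold range within 1 tissue and week, against 1.81-fold for Cbs.

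CG6385 had medians of 20.9 FPKM in heart, 38.7 in head and 24.9 in periphery. Heart differed from head by −0.99 ± 0.39 (adjusted p 0.0231), and after rescaling by −0.44 (adjusted p 0.306). Without ZT12 that difference was −0.51 (adjusted p 0.300), and without ZT18 −0.72 (adjusted p 0.152). From periphery it differed by −0.47 ± 0.36 (adjusted p 0.232), with pairs between −2.30 and 1.78, and without ZT00 by −1.07 (adjusted p 0.00561). The mean over times thus rested on which times were included.

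Sam-S and Ahcy13 had ranges that overlapped between all 3 tissues. Sam-S had medians of 223 FPKM in heart, 219 in head and 174 in periphery. Head exceeded periphery by 0.38 ± 0.13 (adjusted p 0.0137), in 10 of 13 pairs, but by 0.27 after rescaling (adjusted p 0.0610), 0.19 with all libraries as labelled (adjusted p 0.230) and 0.27 without ZT12 (adjusted p 0.0710). Heart differed from head by −0.09 ± 0.17, which turned to 0.50 after rescaling (adjusted p 0.0102). Ahcy13 had medians of 199, 154 and 125 FPKM in heart, head and periphery, and heart exceeded periphery by 0.65 ± 0.31 (adjusted p 0.0552), or by 1.13 after rescaling (adjusted p 0.00205).

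**Figure D5:**
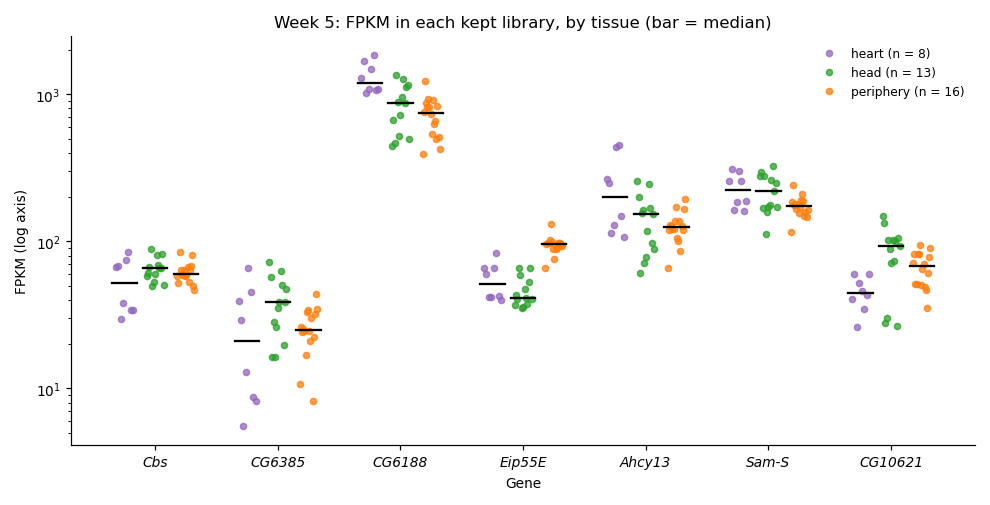
FPKM on a log axis of each gene in every week 5 library used, by tissue (8 hearts, 13 heads and 16 peripheries); bars are medians. Eip55E in periphery lies above all heads, CG6188 has its highest median in heart, and CG6385 has its widest range, 11.9-fold, in heart.

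The order of the levels per length was the same at the top in every tissue. By median FPKM at week 5, CG6188 was highest in heart, head and periphery, followed by Sam-S and then Ahcy13. The range of CG6188 lay above those of all the others in each tissue, whereas Sam-S and Ahcy13 overlapped. The lowest was CG6385 in each of the 3. Eip55E, Cbs and CG10621 changed places: Eip55E was the 4th in periphery (96.6 FPKM) and the 6th in head (41.2). In heart, Cbs (52.3), Eip55E (51.1) and CG10621 (44.7) had ranges that overlapped throughout. These are levels per length in FPKM, each gene represented by 1 transcript.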

How the data were processed

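The deposited values were FPKM, computed by the authors per transcript of build dm3 (29260 transcripts, 15240 genes, 5900 with several transcripts). The submitters' processing notes name CASAVA 1.8.2, STAR 2.2.0c and HOMER, without roles. FPKM times length fell on even steps for 100% of low values checked (within 0.03 reads), which gave whole reads and depth. Heads with ninaE below 1000 FPKM and peripheries above it were left out. The members and lists were chosen with earlier results of these data known.

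Differences were tested on log2(FPKM + 1), computed from the FPKM the authors deposited, keeping genes that averaged 1 FPKM or more, with limma 3.58.1 (R 4.3.3, trended empirical Bayes) and Benjamini-Hochberg adjustment over all genes at 0.05. Feeding was fitted with week and ZT as blocks, tissues with feeding and ZT as blocks, and age with feeding and ZT as factors; rhythms used a cosine and sine of 24 h. The same fits were also run on simulated data with independent normal noise and known changes added. Block effects, label errors and differences in depth were not simulated, so this run does not give the power of these comparisons. Named genes were all 7, the pathway genes that passed a test or the heart order of libraries, and the 5 most alike of Cbs and CG6385. NimC1 was not found. Pairs are libraries of the same ZT label, not of the same animals. Python 3.11.15, numpy 2.4.6, pandas 2.3.3 and matplotlib 3.10.9 were used for descriptions and figures. FPKM shifts with the composition of each library, so a difference between tissues depends on the scaling.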

Additional observations from a re-analysis of the deposited data

Results flagged for a closer look

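Among 56 groups of 4 to 10 libraries checked for a library far from the others, 2 held one, and chance gives about 1 in 20 groups. Cbs in periphery at week 5 under ALF was at 85.0 FPKM at ZT06, while the other 7 libraries were at 52.4 to 64.3. Eip55E in periphery at week 5 under TRF was at 75.3 FPKM at ZT00, while the other 7 were at 88.9 to 97.9. The TRF minus ALF difference of CG6188 in periphery was positive in both pairs of week 7 (mean 0.17, log2) and negative in both pairs of week 3 (mean −0.17); the difference between the weeks was not tested.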

How the results depend on the processing

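Each choice was changed alone: the pseudocount (0.1 or 5 FPKM), the filter (none, or a minimum of 5 FPKM), scaling to the median of ratios, all libraries as labelled, limma-voom on reads, no replicate block, weeks fitted alone, ZT as a factor, and each ZT left out in turn. In the feeding, rhythm and age comparisons, members called stayed at 0 under all of these. There 1160 of 1218 member values were counted as unmoved, which means a move of no more than their error. Values with ZT as a factor have no such error and were counted as unmoved without that comparison. Head against periphery called 2 members, and 1 after rescaling, 1 with all libraries as labelled and 1 to 2 with a ZT left out (1 without ZT12). Heart against head called 4, and 2 to 4 with a ZT left out (2 without ZT00, ZT12 or ZT18). Heart against periphery called 4, and 3 to 5 with a ZT left out. Rescaling turned 3 values: Cbs to 0.11 (heart against periphery) and 0.068 (heart against head), and Sam-S to 0.50 (heart against head). The replicate block here is the shared ZT, which the labels do not tie to the same animals or culture. Without it, heart against periphery and heart against head called 5 members each, with Ahcy13 called in both (0.73 and 0.66, adjusted p 0.00826 and 0.0217), and head against periphery called 2. The cause was not tested.

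Counts over all genes depended more on the settings. The 1154 genes called with age in periphery fell to 1 with all libraries as labelled, and to 139 and 127 without ZT12 and without ZT18. The 29 genes with a rhythm in periphery became 0 with ZT as a factor and 0 to 169 with a ZT left out. The 20 genes called for feeding in periphery at week 7 became 0 with all libraries as labelled, 2 without the block, 12 with no filter, 76 with the week fitted alone and 0 without ZT12 or ZT18. Elsewhere at most 14 genes were called where the main count was 0. Depth limits the head libraries most, at 0.210 M reads for the shallowest.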
